A study of Mus musculus with 9 samples.

Results

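The Gm43181 locus on mouse chromosome 5 was described through 7 of the 27203 gene IDs in the deposited table: the lncRNA Gm43181, a second lncRNA, Gm42462, and the protein-coding genes Fbxl5, Bst1, Cd38, Cc2d2a and Cpeb2. Gm43181 was selected on its FPKM, which was higher in both groups with ventilator-induced lung injury (VILI) than in control, so its own difference from control is a description with no test. The other 6 genes lie within 1 Mb of it, but were chosen with earlier results of these data known and not by position alone. Cpeb2, 494 kb away, is among them, while nearer genes such as C1qtnf7 (165 kb) are not. The question asked of the 6 was whether they moved with Gm43181. All tested genes within 1 Mb are counted separately below. The 7 genes had 19 of the 60108 transcripts in the table.

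Lung RNA of male C57BL/6 mice, aged 6 to 8 weeks by the study's methods, was profiled by RNA-Seq in 9 libraries, 3 per group. Control mice were intubated and not ventilated. VILI mice were ventilated at a tidal volume of 20 ml/kg for 4 h and their lungs were taken 0 h (VILI 0 h) or 6 h (VILI 6 h) later. No group carried a transgene or a deletion. P values of group comparisons rest on the spread between libraries within groups, pooled over the 3 groups and moderated across genes.

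VILI is injury of the lung by overstretch, in which neutrophils enter the tissue early. A lncRNA is a transcript without a recognized protein product, and some lncRNAs act in cis on genes beside them, which is why neighbours are examined. Fbxl5 is the substrate receptor of a ubiquitin ligase that degrades the iron regulatory protein Ireb2 when iron is plentiful. Bst1 (CD157) and Cd38 are sister genes that lie side by side and encode cell-surface enzymes that consume NAD and can form cyclic ADP-ribose, a calcium-releasing messenger. Bst1 is known from myeloid and stromal cells, and Cd38 from B cells and activated lymphocytes. Cc2d2a is part of the gate at the base of the cilium, and Cpeb2 binds mRNA tails and regulates translation.

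In GENCODE M21 (GRCm38), Gm43181 (ENSMUSG00000106609) spans chr5:43784046-43786117 on the minus strand. It is a single exon of 2072 bases in the class TEC, which marks loci still to be experimentally tested. Gm43181 lies inside the span of Fbxl5 (chr5:43744615-43821638), on the same strand. It overlaps 0 Fbxl5 exons and sits in a 47.9 kb intron that belongs to 1 of the 12 annotated Fbxl5 transcripts. The other Fbxl5 transcripts start 1896 bases downstream of the 3′ end of Gm43181, or farther. Gm42462 (chr5:43752909-43754271, minus strand, TEC, 1363 bases) lies 29.8 kb away, inside Fbxl5 introns that 6 of its transcripts span. Unspliced RNA of the 1 long Fbxl5 transcript covers Gm43181, and that of the 6 transcripts covers Gm42462. The lncRNAs and such host RNA cannot be told apart in these values. Another TEC gene, Gm43182, overlaps Gm43181 by 725 bases on the plus strand and had no transcript in the table. The labels and the study's methods name different library kits, the latter a directional (strand-specific) one, and whether strand was used in counting is not given in the sources used here. If it was not, plus-strand RNA from these 725 bases counts toward Gm43181, and RNA from the overlap of Fbxl5 and Bst1 cannot be assigned to one of them.

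Bst1 (chr5:43818885-43843986, plus strand) begins 32.8 kb from Gm43181, and its span overlaps that of Fbxl5, on the opposite strand, by 2754 bases. In the longest Fbxl5 transcript these bases are intron up to chr5:43821540, and only the short rest is exon. Cd38 (chr5:43868553-43912375, plus strand) begins 82.4 kb from Gm43181 and 24.6 kb after the end of Bst1. Cc2d2a (chr5:43662346-43740972, plus strand) ends 43.1 kb from Gm43181 on the other side. Cpeb2 (chr5:43233170-43289724, plus strand) is the only one of the 7 outside 100 kb.

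The sequence of Gm43181 that the study's qRT-PCR primers bound is shown because it is the stretch of the locus that the study assayed. It lies inside the intron of 1 of the 12 Fbxl5 transcripts, on the strand of Fbxl5, so unspliced RNA of that transcript holds it too. It covers bases 244 to 352 of the transcript (chr5:43785766-43785874, minus strand, GRCm38, GENCODE M21), and capitals mark the 2 primer sites. No other GENCODE M21 transcript held both sites.
Gm43181 amplicon: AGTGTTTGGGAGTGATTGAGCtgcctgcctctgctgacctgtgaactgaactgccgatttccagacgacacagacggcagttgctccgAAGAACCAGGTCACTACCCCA

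The last 60 bases of both lncRNAs are shown because both hold the polyadenylation hexamer AATAAA, in capitals, on the transcribed strand. The hexamer ended 22 bases before the annotated 3′ end in Gm43181 (chr5:43784046-43784105) and 11 bases before it in Gm42462 (chr5:43752909-43752968).
Gm43181 3′ end: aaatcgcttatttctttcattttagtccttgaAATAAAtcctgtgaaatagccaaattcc
Gm42462 3′ end: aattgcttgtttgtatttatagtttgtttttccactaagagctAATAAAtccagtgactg
The same 6 letters were present in the last 60 bases of 22.9% of 3294 TEC transcripts and of 41.1% of 58781 protein-coding transcripts. A match is a run of letters and not a mapped end. The longest open reading frame was 76 codons in Gm43181 and 120 codons in Gm42462.

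The values are FPKM, fragments scaled by transcript length and by the mapped fragments of the library. The libraries summed to 366360 to 388459 FPKM, and 38961 to 40372 transcripts were above 0. Library VILI 6 h 1 stood apart from its group: its mean Spearman correlation with the control libraries was 0.978, against 0.954 with the other VILI 6 h libraries. Calls on the neighbours that changed without it are given with each gene. The lung markers fixed for the check of tissue were present in every library, with alveolar type 2 markers summing to 13000 to 16100 FPKM. Red cell markers summed to 489 FPKM in VILI 6 h 1, against 3450 and 3870 FPKM in the rest of its group and 3230 to 5420 FPKM in control and VILI 0 h, and 4 of 6 were lower at 6 h than at 0 h (4.94% of all 19378 genes were). Of 9 alveolar macrophage markers, 5 rose at 0 h (6.81% of all genes did), and VILI 6 h 1 had the highest sum (712 FPKM, against 314 to 533 FPKM in the others). Neutrophil markers (20 genes, 18 tested, none under 0.1 FPKM in every library) summed to 81.7 to 89.1 FPKM in control, 638, 1140 and 1040 FPKM in VILI 0 h 1 to 3 and 563, 1150 and 2340 FPKM in VILI 6 h 1 to 3. Of the 18 tested, 16 rose at 0 h and 17 at 6 h, where 6.81% and 8.17% of all genes did. Their part in any result below was not tested, and in whole lung a change in the number of cells of a type and a change in RNA per cell cannot be told apart.

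Gm43181 was at 0.521, 0.677 and 0.510 FPKM in the 3 control libraries. It was at 2.86, 6.53 and 9.57 FPKM in VILI 0 h and at 2.76, 7.43 and 10.9 FPKM in VILI 6 h. Every VILI library was above every control library, and replicate 1 of each VILI group was well below the other 2. The means were 0.570 ± 0.0936 FPKM in control, 6.32 ± 3.36 in VILI 0 h and 7.05 ± 4.11 in VILI 6 h (SD, n = 3). A gene is said below to pass, rise or fall where the limma test across all genes gave an unadjusted P under 0.05, and adjusted p is the Benjamini-Hochberg value over all genes tested. On the log2(FPKM + 0.1) scale the difference from control was 3.11 (SE 0.52) at 0 h and 3.22 (SE 0.52) at 6 h, an 8.64-fold and a 9.31-fold higher level. These values depend on the pseudocount: the log2 differences were 2.11 and 2.21 with 1, and 3.3 and 3.41 with 0.01. VILI 6 h and VILI 0 h differed by 0.11 (SE 0.52, adjusted p = 0.963). Gm43181 was a low transcript in control lung, where its FPKM corresponds to an estimated 23 to 28 fragments per library, against 144 to 578 in VILI.

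Few RNAs of its class were higher. As Gm43181 was chosen for its rise, these shares are background and no result about it. Among 521 TEC genes tested, 1.54% were higher and 44.7% were lower at 0 h with P under 0.05. At 6 h the shares were 2.5% and 20.3%. Sense-intronic genes (136 tested), which like Gm43181 lie in introns on the strand of their host, had 1.47% higher and 43.4% lower at 0 h, and 1.47% and 14.7% at 6 h.

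Gm42462, the lncRNA nearest to Gm43181 in the table, was at 2.48, 2.12 and 1.63 FPKM in control. It was at 3.81, 3.94 and 6.54 FPKM in VILI 0 h and at 2.51, 10.5 and 15.3 FPKM in VILI 6 h. All VILI libraries were above control, but VILI 6 h 1 exceeded the highest control library by a small margin only. Gm42462 rose at 6 h, with a log2 fold change of 1.81 (SE 0.56, adjusted p = 0.137), and at 0 h the log2 fold change of 1.13 did not pass (adjusted p = 0.355). Without VILI 6 h 1 the rise at 6 h was 2.57, and the difference at 0 h passed, as it did without VILI 6 h 3 and with only the 6 libraries compared. The difference between the times was 0.67 in all libraries, did not pass, and ranged from 0.16 without VILI 6 h 3 to 1.44, past the threshold, without VILI 6 h 1.

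Fbxl5, the host gene, was the highest of the 7 in every group. Its 9 transcripts summed to 33.5, 38.2 and 36.4 FPKM in control, 43.0, 53.3 and 58.6 FPKM in VILI 0 h and 44.7, 56.3 and 63.5 FPKM in VILI 6 h. No VILI library overlapped the controls, and the order of the libraries within each VILI group was that of Gm43181. The sum rose by 0.51 (SE 0.15, adjusted p = 0.157) at 0 h and by 0.59 (SE 0.15, adjusted p = 0.101) at 6 h on the log2 scale, or 1.42-fold and 1.51-fold. The calls at both times were kept without each of the 9 libraries in turn, with ranges of 0.41 to 0.63 and 0.48 to 0.73.

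**Figure D1:**
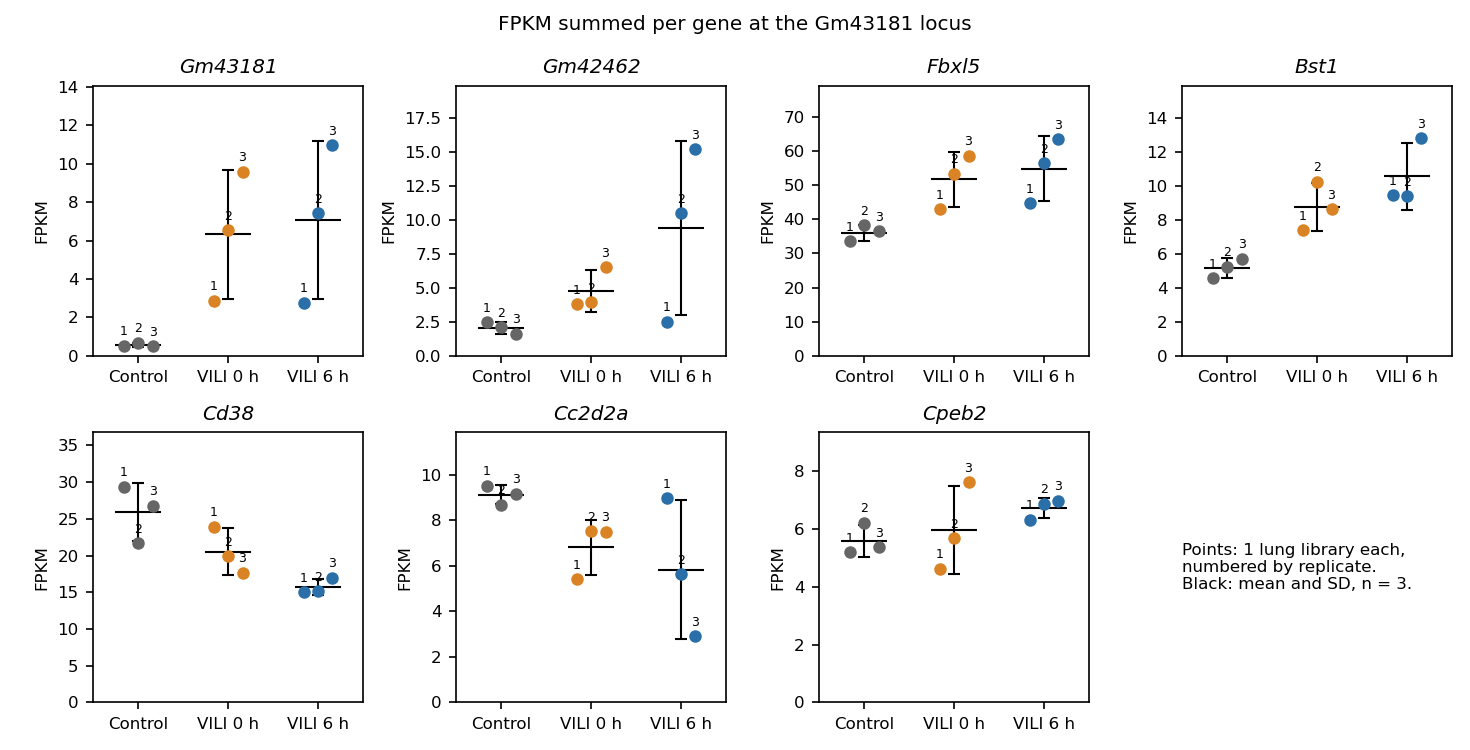
FPKM summed per gene (vertical axes, from 0) for the 7 genes in control, VILI 0 h and VILI 6 h lungs, with 1 point per library numbered by replicate and the mean and SD in black. Gm43181, Fbxl5 and Bst1 were above every control in all 6 VILI libraries, and Cd38 was below every control in all 3 VILI 6 h libraries.

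The Fbxl5 transcripts did not share this pattern evenly. They carry no transcript IDs in the table and are numbered here in its order. Transcripts 1, 2 and 3 were at 0 in all 9 libraries, and transcripts 5 and 7 stayed at or under 0.101 FPKM. Transcript 9, the highest by its mean in control and VILI 0 h, was at 11.6, 15.3 and 17.8 FPKM in control, 12.2, 30.9 and 21.9 FPKM in VILI 0 h and 16.5, 15.9 and 13.6 FPKM in VILI 6 h, with overlapping groups. In VILI 6 h its mean (15.3 FPKM) was below that of transcript 8 (16.1 FPKM). Transcript 4 was at 7.23 to 9.92 FPKM in control and at 8.84 to 12.4 FPKM in VILI 6 h. In VILI 0 h it was at 11.3, 0 and 9.27 FPKM, and the 0 fell in the library where transcript 9 was highest.

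Transcripts 6 and 8 were the 2 that passed the test. Transcript 8 was at 8.94, 12.4 and 6.08 FPKM in control, 12.7, 16.0 and 18.4 FPKM in VILI 0 h and 15.5, 16.7 and 16.0 FPKM in VILI 6 h. It rose by 0.81 (SE 0.25, adjusted p = 0.305) and by 0.86 (SE 0.25, adjusted p = 0.247). Transcript 6 was at 3.00, 3.25 and 3.37 FPKM in control, 6.80, 6.34 and 8.89 FPKM in VILI 0 h and 3.80, 13.4 and 21.4 FPKM in VILI 6 h, and rose at 6 h by 1.66 (SE 0.53, adjusted p = 0.277). Its difference at 0 h (1.16) passed without VILI 6 h 1, without VILI 6 h 3 and with only the 6 libraries compared, and that between the times (1.21) without VILI 6 h 1. Its share of the Fbxl5 sum was 8.51% to 9.25% in control, 15.8%, 11.9% and 15.2% in VILI 0 h and 8.51%, 23.8% and 33.8% in VILI 6 h, so VILI 6 h 1 was at the control level.

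Transcript 6 was singled out after its values were seen, because it resembled Gm42462: across the 6 VILI libraries its FPKM had a Pearson r of 0.992 with Gm42462 and of 0.787 with Gm43181. Without transcript 6 the Fbxl5 sum was 30.5 to 35.0 FPKM in control, 36.2 to 49.7 FPKM in VILI 0 h and 40.9 to 42.9 FPKM in VILI 6 h, still with no overlap of control and VILI. VILI 6 h 3, the highest of the 6 VILI libraries in the full sum, was then the fourth.

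**Figure D2:**
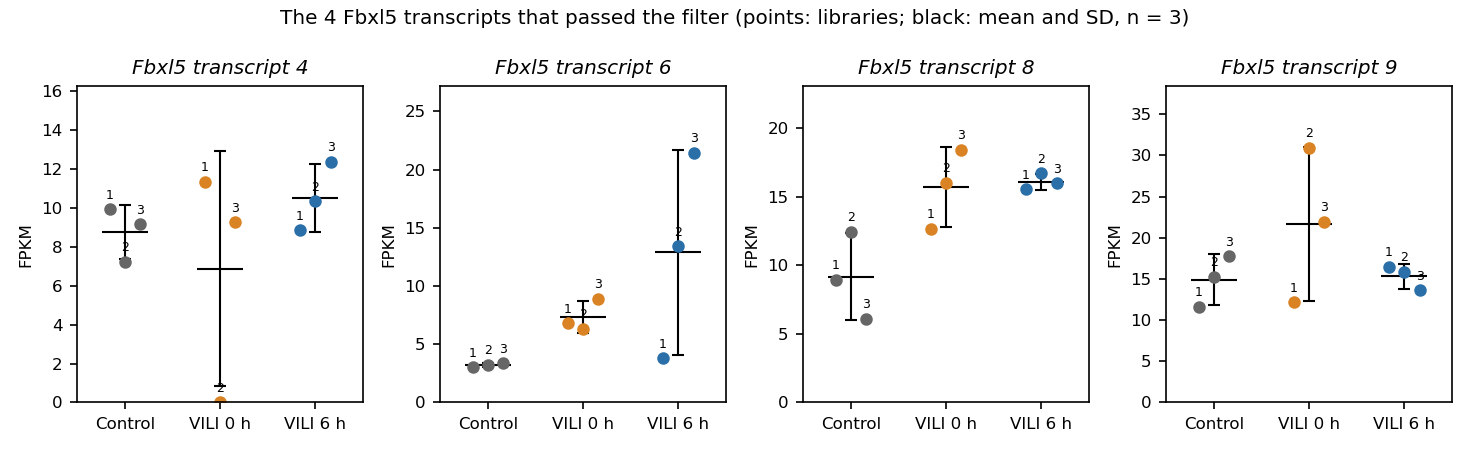
FPKM (vertical axes, from 0) of the 4 Fbxl5 transcripts with a mean of at least 0.1 FPKM, by group, with 1 point per library numbered by replicate and the mean and SD in black. Transcript 6 reached 21.4 FPKM in VILI 6 h 3, transcript 4 was at 0 in VILI 0 h 2, and transcript 9 had overlapping groups.

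Bst1 rose and Cd38 fell, although they lie side by side on the same strand. Bst1 was at 4.56, 5.23 and 5.72 FPKM in control, 7.37, 10.2 and 8.63 FPKM in VILI 0 h and 9.45, 9.39 and 12.8 FPKM in VILI 6 h. The groups did not overlap with control, and Bst1 rose by 0.74 (SE 0.17, adjusted p = 0.0939) at 0 h and by 1.0 (SE 0.17, adjusted p = 0.0389) at 6 h. The level at 6 h was 2.01-fold that of control, and both calls were kept without each library in turn (0.62 to 0.86 and 0.86 to 1.08).

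Cd38 was at 29.4, 21.7 and 26.8 FPKM in control, 24.0, 19.9 and 17.7 FPKM in VILI 0 h and 15.03, 15.12 and 17.0 FPKM in VILI 6 h. Each VILI 6 h library was below each library of the other groups, while VILI 0 h overlapped control. Cd38 fell by 0.71 (SE 0.15, adjusted p = 0.0641) at 6 h, to 0.611 of control, and that call was kept without each library in turn. At 0 h the log2 fold change was -0.34 (adjusted p = 0.295), and it no longer passed without Control 1 (-0.24), Control 3 (-0.31), VILI 0 h 2 (-0.32), VILI 0 h 3 (-0.24) or VILI 6 h 2 (-0.34). From 0 h to 6 h it was -0.37 (adjusted p = 0.445), which no longer passed without VILI 0 h 1 (-0.26), VILI 0 h 2 (-0.39), VILI 6 h 1 (-0.34) or VILI 6 h 2 (-0.35). Neither difference passed with median-centred libraries (-0.22 and -0.36) or without a trend in the variance (-0.34 and -0.37), and the 0 h difference did not pass with only the 6 libraries compared.

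The ratio of Bst1 to Cd38 FPKM was 0.155 to 0.241 in control, 0.308 to 0.515 in VILI 0 h and 0.621 to 0.753 in VILI 6 h. These 3 ranges did not overlap. Among B cell and plasma cell markers (11 genes, all tested), 2 fell at 0 h and 7 at 6 h, where 9.35% and 12.2% of all genes fell, and their summed level was 77.4 to 105 FPKM in control, 38.1 to 88.2 FPKM in VILI 0 h and 24.7 to 57.9 FPKM in VILI 6 h. Their part in the fall of Cd38 was not tested.

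Cc2d2a was at 9.52, 8.69 and 9.16 FPKM in control, 5.40, 7.52 and 7.50 FPKM in VILI 0 h and 8.97, 5.62 and 2.90 FPKM in VILI 6 h. All VILI 0 h libraries were below control, yet the log2 fold change of -0.43 did not pass (adjusted p = 0.56) except with only the 6 libraries compared, a setting under which the 6 h difference no longer passed, and VILI 6 h 1 was within the control range. At 6 h the log2 fold change was -0.78 (SE 0.33, adjusted p = 0.234). It no longer passed without any 1 library except VILI 6 h 1, and was -0.36 without VILI 6 h 3 and -1.15 without VILI 6 h 1. Of its 2 transcripts, transcript 2 carried most of the sum in 9 of 9 libraries and fell at 6 h by 0.88 (SE 0.30, adjusted p = 0.291). Without VILI 6 h 1 the differences between the times also passed, at -0.72 for the sum and -0.86 for transcript 2. Ciliated airway cell markers summed to 93.4 to 103 FPKM in control, 95.1 to 118 FPKM in VILI 0 h and 86.4 to 135 FPKM in VILI 6 h, and 1 of 10 passed at 0 h and 0 of 10 at 6 h.

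Cpeb2, the most distant of the 7, was at 5.20, 6.22 and 5.36 FPKM in control, 4.62, 5.68 and 7.62 FPKM in VILI 0 h and 6.32, 6.87 and 6.98 FPKM in VILI 6 h. With all libraries it passed in no comparison: the log2 fold changes were 0.07 at 0 h, 0.26 at 6 h and 0.20 between the times, the last of which passed without VILI 0 h 3 (0.39). Its 4 transcripts ranged from 0.004 to 5.29 FPKM across libraries, and none passed in any comparison.

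Since FPKM is per length, the levels of the 7 genes can be set in order. In control the means were 36.0 FPKM for Fbxl5, 26.0 for Cd38, 9.12 for Cc2d2a, 5.59 for Cpeb2, 5.17 for Bst1, 2.08 for Gm42462 and 0.570 for Gm43181. Cpeb2 and Bst1 were within their spread, and all other neighbours in the order did not overlap. In VILI 6 h the means were 54.8 FPKM for Fbxl5, 15.7 for Cd38, 10.5 for Bst1, 9.42 for Gm42462, 7.05 for Gm43181, 6.72 for Cpeb2 and 5.83 for Cc2d2a. Below Cd38 each gene overlapped the next in that order.

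Taking the 6 neighbours by their sums, 3 passed at 0 h, Fbxl5 and Bst1 higher (6.81% of all genes were) and Cd38 lower (9.35%), where 16.2% of all genes passed. At 6 h 5 of 6 passed, Gm42462, Fbxl5 and Bst1 higher (8.17% of all genes) and Cd38 and Cc2d2a lower (12.2%), against 20.4% of all genes either way. The 2 comparisons share the control libraries. Between the times 1 of 6 passed, Cd38, against 10.0% of all genes (5.06% higher, 4.94% lower). Groups without overlap, as in Fbxl5 and Bst1, were found in 33.5% of all genes at 0 h, in 24.6% at 6 h and in 12.5% between the times. Bst1 at 6 h was the only one that also passed after adjustment over all genes, as 0.702% of genes did. By transcript, 2, 6 and 1 of 13 passed in the 3 comparisons, against 11.0%, 13.2% and 7.4% of 37300 transcripts.

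The second way to ask whether neighbours moved with Gm43181 is across the 6 VILI libraries, where both VILI groups spread widely and the contrast with control plays no part. Fbxl5 followed Gm43181 most closely. Its sum had a Pearson r of 0.990 with Gm43181 (exact permutation p = 0.00278, two-sided, adjusted p = 0.0167) and a Spearman rho of 0.943 (exact p = 0.0167, adjusted p = 0.0501). For correlations, adjusted p is the Benjamini-Hochberg value over the 6 relations computed. An r is said to pass at an unadjusted exact p under 0.05. The r was 0.973 without the 2 libraries farthest from the median of Gm43181, 0.995 on deviations from the group means, and 0.984 to 0.994 without each library in turn. Of 19371 genes, 2 had an r this high, Fbxl5 and Adhfe1, the latter named after its value was seen. With libraries divided by their median the r of Fbxl5 was 0.981, which 6 genes reached. The relation rests on the sum, as no single tested transcript reached it. The r was 0.787 for transcript 6 (exact p = 0.0556, rho 0.886), 0.691 for transcript 8 (exact p = 0.125) and 0.123 for transcript 4 (exact p = 0.828). Transcript 9, the highest by its mean over all libraries, had an r of 0.147 (exact p = 0.851).

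Gm42462 had an r of 0.806 (exact p = 0.0597, adjusted p = 0.172) and a rho of 0.943 (exact p = 0.0167, adjusted p = 0.0501). Its r was 0.707 without the 2 farthest libraries. Its r passed without VILI 0 h 3 (0.914, exact p = 0.00833) or without VILI 6 h 2 (0.823, exact p = 0.00833). With 1 VILI library left out 0.00833 is the smallest p possible, and these values are not adjusted. Cpeb2 had an r of 0.750 (exact p = 0.0861, and 0.904 without VILI 6 h 1, exact p = 0.0417), and Bst1 one of 0.639 (exact p = 0.169, rho 0.314), as VILI 6 h 1, lowest of the 6 in Gm43181, was the third highest in Bst1. An r at least this high with Gm43181 was found in 1.92% (Gm42462), 3.03% (Cpeb2) and 6.7% (Bst1) of all genes. With libraries divided by their median all 3 passed, at 0.852 for Gm42462 (exact p = 0.0278), 0.897 for Cpeb2 (exact p = 0.0153) and 0.778 for Bst1 (exact p = 0.0389), values that 416, 196 and 930 of 19371 genes reached. Cd38 (-0.328, exact p = 0.569) and Cc2d2a (-0.519, exact p = 0.289) had negative values that did not pass. The smallest p that the 720 pairings allow is 0.00139. Library VILI 6 h 1 and VILI 0 h 1, lowest in Gm43181 and in Fbxl5, were also the lowest in summed neutrophil markers, whose part in the relation was not tested.

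**Figure D3:**
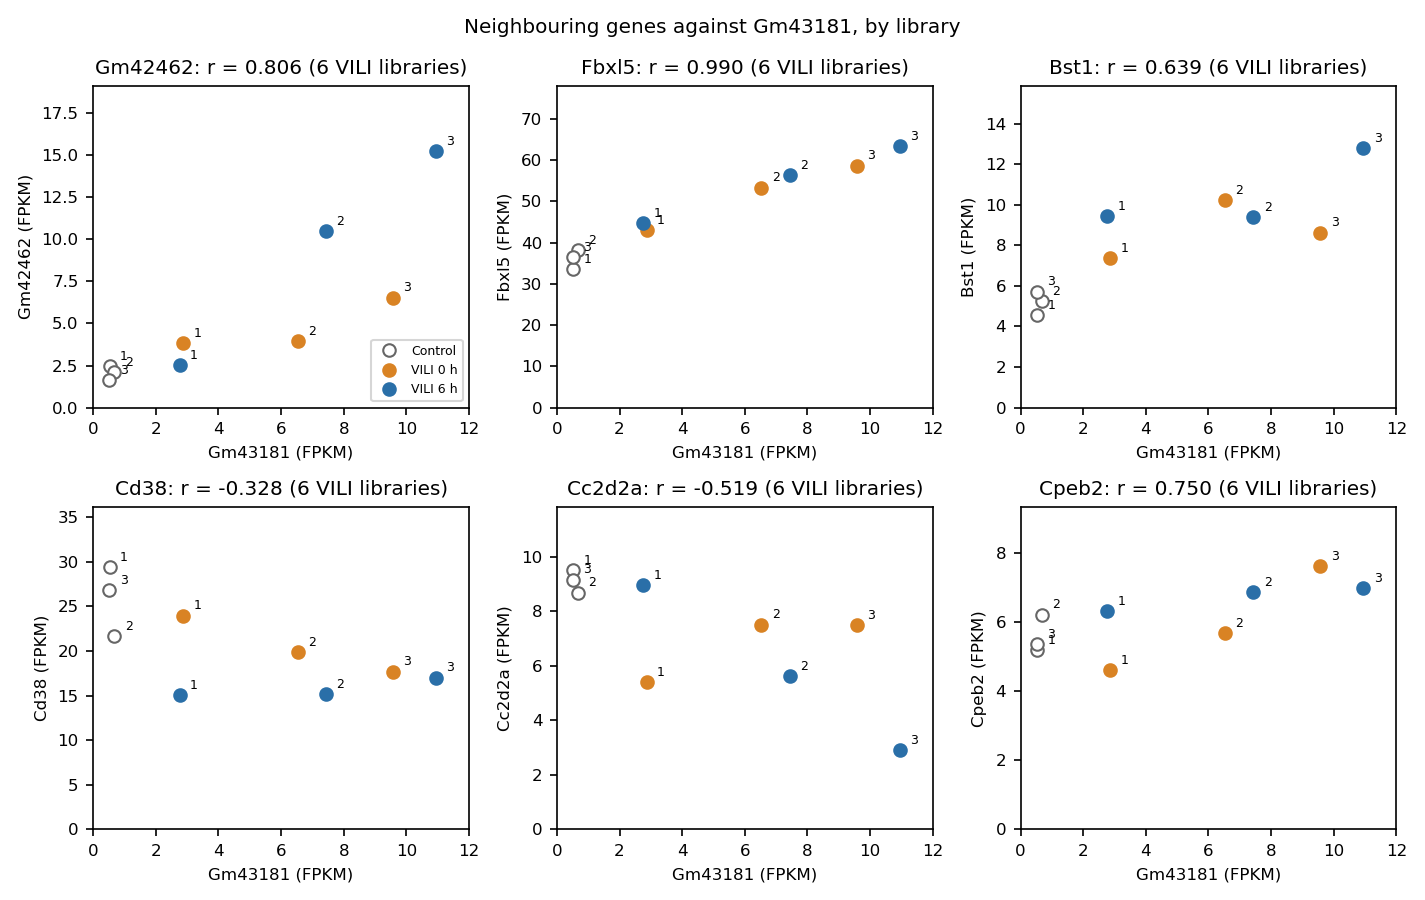
FPKM of each of the 6 neighbours (vertical axes) against FPKM of Gm43181 (horizontal axes), with 1 point per library numbered by replicate, open for control and filled for VILI 0 h and VILI 6 h. The r in each title is over the 6 VILI libraries: the Fbxl5 points lie near 1 line (0.990), and those of Cd38 and Cc2d2a do not.

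Across all 9 libraries on the log2(FPKM + 0.1) scale, the genes most like Gm43181 among 19377 were Gm44165 (Pearson r 0.992), Mmp8, a neutrophil collagenase (0.991), Il1r2, the decoy receptor for interleukin-1 (0.986), Ccr1, a chemokine receptor of myeloid cells (0.984), and Cxcr2, the neutrophil chemokine receptor that the study set beside Gm43181 (0.983). Fbxl5 ranked 12 (0.977), Bst1 134 (0.919) and Gm42462 351 (0.863). Cpeb2 ranked 2015 (0.598), and Cc2d2a (16361, -0.668) and Cd38 (17917, -0.769) had negative values. These values use the contrast that chose Gm43181 and carry no test. Mmp8, Il1r2 and Cxcr2 are on the list of neutrophil markers above. Cxcr2 was at 1.53, 1.33 and 1.24 FPKM in control, 10.6, 20.9 and 23.3 FPKM in VILI 0 h and 11.6, 19.8 and 27.0 FPKM in VILI 6 h.

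By position alone, GENCODE M21 places 59 other genes within 1 Mb of Gm43181, of which 18 were in the table and 17 passed the filter. At 0 h 2 of the 17 rose (Fbxl5 and Bst1) and 6 fell, where 6.81% of all genes rose and 9.35% fell. Of the 6 that fell, 4 were TEC (Gm43022, E430021H15Rik) or sense-intronic genes (Gm16014, Gm3364), classes in which 44.7% and 43.4% of the genes tested fell at 0 h. At 6 h 3 rose and 4 fell, against 8.17% and 12.2%. Between the times 1 rose and 1 fell, against 5.06% and 4.94%. Within 100 kb, 6 of 8 other genes were tested, and 4, 5 and 2 passed in the 3 comparisons, where 16.2%, 20.4% and 10.0% of all genes did. The sixth of them, Gm16014, is a sense-intronic RNA inside Cd38 (chr5:43876030-43877304, plus strand). It was at 1.61, 1.37 and 1.97 FPKM in control, 0.734, 0.751 and 0.697 FPKM in VILI 0 h and 1.10, 1.16 and 1.39 FPKM in VILI 6 h. Gm16014 fell at 0 h by 1.07 (SE 0.21, adjusted p = 0.0706) and was higher at 6 h than at 0 h by 0.66 (SE 0.21, adjusted p = 0.36), while Cd38 around it was lowest at 6 h. Farther out, Gm43022 fell at both times (-1.21 and -0.69), although the 6 h call was lost without Control 1, Control 2, VILI 6 h 2 or VILI 6 h 3 (-0.73 to -0.46). Gm3364 (-1.81), Ldb2, a cofactor of LIM-domain transcription factors (-0.65), and E430021H15Rik (-0.41) fell at 0 h, and C1qtnf7 (-0.96) at 6 h. The E430021H15Rik call was lost without any 1 of Control 1, 2 and 3, VILI 0 h 2 and 3 and VILI 6 h 2 (-0.44 to -0.35), and the C1qtnf7 call without Control 1 (-0.80). No assembled lncRNA locus of the table lay within 1 Mb.

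**Figure D4:**
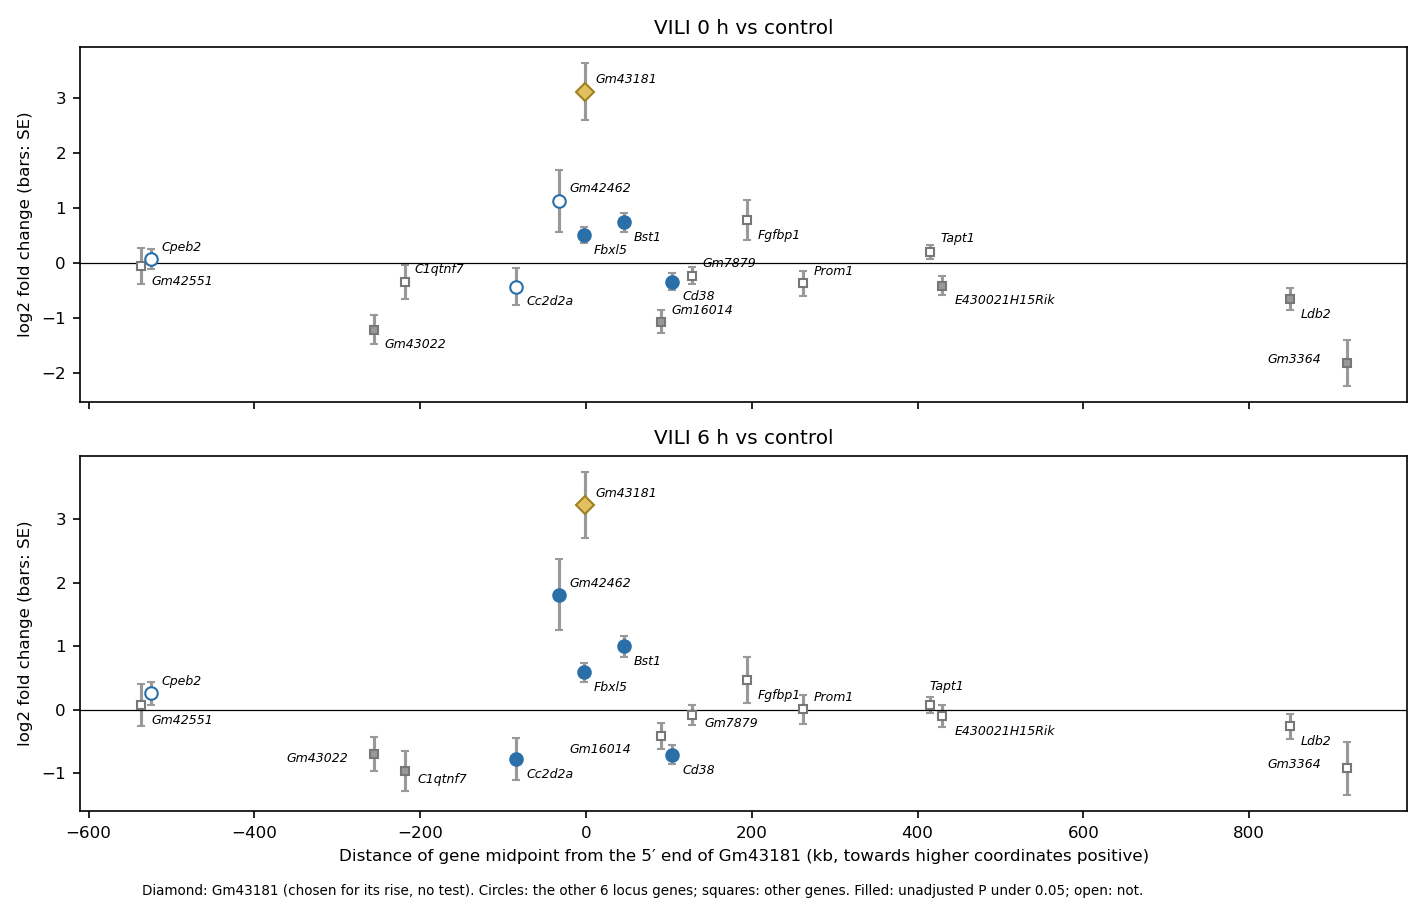
Log2 fold change with SE (vertical axes) of the tested genes within 1 Mb of Gm43181 against the distance of their midpoint from its 5′ end in kb, for VILI 0 h (top) and VILI 6 h (bottom) vs control. Gm43181 (diamond, no test) stands at 3.11 and 3.22, Gm42462, Fbxl5 and Bst1 beside it are above 0, and Cd38 and Cc2d2a are below 0.

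The genes that work with the neighbours were examined as 5 lists, to be read against the 6.81% of all genes that rose and 9.35% that fell at 0 h, and the 8.17% and 12.2% at 6 h. In iron handling, the setting of Fbxl5, 4 of 26 genes rose and 4 fell at 0 h, and 7 rose and 4 fell at 6 h (median log2 fold change 0.10 and 0.02, against -0.07 and -0.09 over all genes). Without each library in turn 3 to 10 passed at 0 h (3 without VILI 0 h 3, 4 without Control 2, 5 without Control 3) and 8 to 15 at 6 h. Tfrc, the transferrin receptor, fell by 0.85 (adjusted p = 0.0899) and by 0.95 (adjusted p = 0.0634), and Steap3, the ferrireductase of the transferrin cycle, fell by 0.93 and 0.57. Aco1, the iron regulatory protein beside Ireb2, fell at 0 h by 0.48 (adjusted p = 0.112). Slc40a1, the iron exporter, rose at 0 h by 0.62 (adjusted p = 0.179) and was lower at 6 h than at 0 h (-0.56, adjusted p = 0.407). The largest rises at 6 h were those of Ltf (2.29), which is also on the neutrophil list, Steap4 (2.28) and Lcn2 (2.18), which sequesters siderophores. VILI 6 h 3 was far above the other VILI 6 h libraries in Steap4 (83.2 FPKM, with the next at 13.4) and in Lcn2 (881 FPKM, with the next at 182). After adjustment over all genes 1 of the 26 passed at 6 h. It was not Ltf (adjusted p = 0.0908), Steap4 (0.109), Lcn2 (0.0978) or Tfrc. Slc11a1 rose at 0 h by 0.54 (adjusted p = 0.263) and by a further 0.80 from 0 h to 6 h (adjusted p = 0.303). Its lowest VILI 6 h value, 6.80 FPKM, exceeded the highest of the other groups, 5.42 FPKM.

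In NAD turnover, on which Bst1 and Cd38 draw, 0 of 25 genes rose and 1 fell at 0 h, and 1 rose and 5 fell at 6 h. Without each library in turn 0 to 5 passed at 0 h (0 without Control 1, VILI 0 h 2 or VILI 6 h 2, 2 without VILI 0 h 1, 4 without VILI 6 h 1 and 5 without VILI 6 h 3) and 2 to 10 at 6 h (2 without Control 2, 10 without VILI 6 h 1). At 0 h 7 passed with only the 6 libraries compared and 0 with median-centred libraries. Nadk, the NAD kinase, rose at 6 h by 0.38 (adjusted p = 0.113), and Kmo (-0.92), Nmnat2 (-0.60) and Nmrk1 (-0.57), enzymes that lead to NAD, fell. Kmo was at 0.886 FPKM in VILI 6 h 1 and at 3.02 and 2.13 FPKM in the rest of its group, against 3.28 to 3.64 FPKM in control. Of 13 genes of calcium release by cyclic ADP-ribose and its relatives, 2 rose and 0 fell at each time. At 0 h 1 passed without Control 1, Control 3 or any 1 VILI 0 h library, and at 6 h 7 passed without VILI 6 h 1. The 2 genes were Trpm2, a cation channel opened by ADP-ribose, at 2.25 (adjusted p = 0.0247) and 1.80 (adjusted p = 0.0257), and Fkbp1b, a ryanodine receptor partner, at 0.52 and 0.76.

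Of 22 genes of the ciliary transition zone, where Cc2d2a acts, 0 rose and 1 fell at 0 h, and 0 rose and 3 fell at 6 h, Tmem237 (-0.56) and Tmem216 (-0.46) among them. These counts depended on single libraries: without each in turn 0 to 5 passed at 0 h (0 without Control 1, Control 2, VILI 0 h 1 or VILI 0 h 3, 5 without VILI 6 h 1). At 6 h 13 passed without VILI 6 h 1, 0 without Control 1, Control 2 or VILI 6 h 3, and 1 without Control 3 or VILI 6 h 2. With only the 6 libraries compared 4 passed at 0 h and 1 at 6 h. With median-centred libraries 0 passed at 0 h and 1 at 6 h, and with the replicate number as a block 1 passed at 6 h. Of 22 genes of mRNA tail regulation, where Cpeb2 acts, 3 rose and 1 fell at each time. With median-centred libraries 9 passed at 0 h, and without VILI 6 h 1 7 passed at 6 h. Btg2 (1.10), Tob2 (0.92) and Btg1 (0.70), which recruit deadenylases, rose at 0 h, and Cpeb3 (-0.60), the relative of Cpeb2, fell. Btg2 was at 216 FPKM in VILI 0 h 3 and at 80.2 and 71.8 FPKM in the rest of its group, against 47.9 to 54.5 FPKM in control. At 6 h Btg1 (0.67), Tob2 (0.60) and Eif4enif1 (0.34) rose and Parn, a deadenylase, fell (-0.25). Every list held members that did not pass, and no list is set apart here from other genes.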

How the data were processed

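The deposited values are FPKM per transcript, which the authors made by removing adapter, poly-N and low-quality reads, aligning with TopHat 2.0.9 and Bowtie2 2.0.6 to GRCm38, assembling transcripts with Scripture and Cufflinks and estimating FPKM with Cuffdiff 2.1.1 (the versions are from the submitters' processing notes). The members and lists were chosen with earlier results of these data known. Gene IDs without their version were matched to GENCODE M21, and FPKM was summed per gene. On log2(FPKM + 0.1), the linear models of limma 3.58.1 (R 4.3.3; moderated variances with an intensity trend; checked on simulated data) were fitted to all 9 libraries with group as the only factor, for genes or transcripts with a mean of at least 0.1 FPKM. A change was called at an unadjusted P under 0.05, the study's threshold, and adjusted p values are Benjamini-Hochberg over everything tested. Fold changes of low genes are understated by the pseudocount of 0.1. Correlations used FPKM and all 720 pairings of the 6 VILI libraries, with adjusted p over the 6 relations. Named genes were the members, genes within 1 Mb that passed or lay within 100 kb, Cxcr2, the 5 genes most like Gm43181, and of each pathway list at most 3 each way with a mean of at least 1 FPKM. Fragment numbers were estimated from the smallest FPKM steps of single-transcript genes. Only 36.5% to 41.6% of values under 20 fragments came out whole within 0.05, so no count model was fitted. Same-numbered libraries did not deviate together (r from -0.221 to 0.017), so numbers were not used as pairs. Sequences are from GENCODE M21 transcripts. No genome sequence was used here.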

Additional observations from a re-analysis of the deposited data

Results flagged for a closer look

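Effects differed between the 2 times after ventilation for 2 of the 17 genes tested within 1 Mb (10.0% of all genes passed this test), by the limma test of VILI 6 h vs VILI 0 h at an unadjusted P under 0.05. Cd38 was lower at 6 h than at 0 h by a log2 fold change of -0.37 (adjusted p = 0.445), a call lost with median-centred libraries (-0.36) and without a trend in the variance. Gm16014, the sense-intronic RNA inside Cd38, was higher at 6 h than at 0 h by 0.66 (adjusted p = 0.36). Neither passed after adjustment over all genes, and the groups did not overlap in either gene.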

How the results depend on the processing

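The count of the 6 neighbours that passed was 3 at 0 h (2 to 4 without each library in turn), 5 at 6 h (4 to 5) and 1 between the times (0 to 2, and 0 with median-centred libraries or without a trend). The count of 13 transcripts was 2 at 0 h (5 with only the 6 libraries compared, 2 to 4 without each library), 6 at 6 h and 1 between the times (0 to 3, and 0 without a trend). Within 1 Mb 4 to 9 genes passed at 6 h and 2 to 5 between the times without each library in turn. With the replicate number as a block 3, 4 and 1 neighbours passed, the one lost at 6 h being Cc2d2a. E430021H15Rik at 0 h also lost its call, and Fbxl5 transcript 6 at 0 h gained one. In 1 of 9 libraries the best match in both other groups was its own number.

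With libraries divided by their median the r with Gm43181 moved to 0.852 (Gm42462), 0.778 (Bst1) and 0.897 (Cpeb2), past the threshold, where 416, 930 and 196 of 19371 genes had an r as high. It moved to 0.943 for Gm42462 by rank, and to 0.147 for the Fbxl5 transcript with the highest mean. For Cd38 it was 0.029 by rank and -0.692 over all 9 libraries. Without each library it ranged from 0.663 to 0.914 (Gm42462), 0.276 to 0.863 (Bst1), -0.791 to 0.318 (Cd38), -0.781 to -0.072 (Cc2d2a) and 0.612 to 0.904 (Cpeb2). Some differences that did not pass with all 9 libraries changed sign with the libraries. Without each library in turn, the difference between the times ranged from -0.37 to 0.67 for Gm43181 (below 0 without VILI 0 h 1, VILI 6 h 2 or VILI 6 h 3), from -0.04 to 0.22 for Fbxl5 (without VILI 0 h 1 or VILI 6 h 3), from -0.02 to 1.21 for its transcript 6 (without VILI 6 h 3), from -0.09 to 0.17 for its transcript 8 (without VILI 0 h 1) and from -0.72 to 0.08 for Cc2d2a (above 0 without VILI 6 h 3). Of these, 1.21 and -0.72, both without VILI 6 h 1, passed. Cpeb2 at 0 h ranged from -0.12 (without VILI 0 h 3) to 0.23. The Fbxl5 sum without transcript 6, an alternative chosen after seeing the data, differed by -0.07 between the times. The causes were not tested. With 3 libraries per group and an estimated 23 to 28 fragments of Gm43181 in a control library, the depth limits the precision of its values.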
